A study of Mus musculus with 8 samples.

Results

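The genes described here are 40 genes of DNA replication and mitosis, 22 that copy the genome and 18 that divide it, taken from 18193 genes named on the arrays. They were chosen by a fixed list of symbols. A gene was represented by its probe set with the highest mean among those annotated with exactly 1 symbol. This gave values for 39 of the 40 genes, and only Ccnb1 (cyclin B1) is not named here. All 39 passed the filter on dim genes, 38 of them above the array median on all 8 arrays. Tyms, the enzyme that makes thymidylate, lay above the median only on the ES cell arrays.

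CCE, the source of all RNA, is an embryonic stem (ES) cell line of the mouse strain 129/Sv, kept in leukemia inhibitory factor. Per the labels' protocols, the cells received a lentivirus with a mouse Bmi1 cDNA or an empty vector, and eGFP-positive cells were kept. Bmi1 is a Polycomb protein known for silencing inhibitors of the cell cycle. The groups were embryoid bodies labelled Bmi1 (2 arrays), embryoid bodies with the empty vector (2 arrays), ES cells labelled Bmi1 (2 arrays) and control ES cells (1 empty vector and 1 untreated array). Embryoid bodies are aggregates in which ES cells differentiate, and they were harvested after 10 days. Nothing in the labels says that the arrays of a group came from separate cultures, so a p-value here reflects array-to-array spread only, and that spread may be technical.

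Replication starts when the helicase Mcm2-7 is loaded on DNA in G1, a step called licensing. Cdc45 and the GINS complex then activate the helicase, and polymerases with their clamp and clamp loader copy both strands from deoxynucleotides that ribonucleotide reductase and Tyms supply. In mitosis cyclin B with Cdk1, Plk1 and the Aurora kinases drive entry and spindle assembly, and the checkpoint holds the anaphase-promoting complex until chromosomes are attached. ES cells are known for fast cycles with a short G1 phase. Replication genes are classic targets of E2F factors, and many mitosis genes are bound through a CHR element by complexes that hold Lin9 and Mybl2 (B-Myb).

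E2F and CHR letters in the promoters of the members differed in frequency between the 2 lists, and the CCAAT box was frequent in both. Windows from 250 bases before to 50 after each start site came from RefSeq (GRCm38.p6) and matched 17 of the 22 replication and 14 of the 18 mitosis genes. Letters of 3 kinds were searched on both strands: E2F letters (TTGGCGC or TTCCCGC), CHR letters (TTTGAA or TTTAAA) and the CCAAT box (CCAAT). Matches of different kinds may overlap. E2F letters stood in 11 replication genes (64.7%) and 3 mitosis genes (21.4%), against 7.79% of all 27025 genes with a window. CHR letters stood in 4 replication genes (23.5%) and 12 mitosis genes (85.7%), against 30.6% of all genes. CCAAT boxes stood in 12 replication genes (70.6%) and 12 mitosis genes (85.7%), against 41.1% of all genes. A CHR and a CCAAT together stood in 4 replication genes (23.5%) and 11 mitosis genes (78.6%), against 12.2% of all genes. These matches describe letters and not bound sites. The windows of Mcm3 (chr1:20820263-20820562, minus strand) and Cenpa (chr5:30666636-30666935, plus strand) are shown because, in the samples labelled Bmi1, the brightest probe sets of these genes had the largest difference between stages in their lists. Those of Cdt1 (chr8:122567765-122568064, plus strand) and Mki67 (chr7:135716330-135716629, minus strand) are shown for another reason. In those samples, their brightest probe sets were not called between stages as deposited and were called higher after quantile normalization. Capitals mark the motif letters, 5′ to 3′ on the strand of the gene.
Mcm3: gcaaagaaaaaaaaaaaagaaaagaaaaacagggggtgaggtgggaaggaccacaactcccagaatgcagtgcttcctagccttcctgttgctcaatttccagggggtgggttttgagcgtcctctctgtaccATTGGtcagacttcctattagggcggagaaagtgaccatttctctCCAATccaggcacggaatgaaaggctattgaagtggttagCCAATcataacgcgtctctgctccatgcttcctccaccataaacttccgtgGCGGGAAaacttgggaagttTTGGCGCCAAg
Cdt1: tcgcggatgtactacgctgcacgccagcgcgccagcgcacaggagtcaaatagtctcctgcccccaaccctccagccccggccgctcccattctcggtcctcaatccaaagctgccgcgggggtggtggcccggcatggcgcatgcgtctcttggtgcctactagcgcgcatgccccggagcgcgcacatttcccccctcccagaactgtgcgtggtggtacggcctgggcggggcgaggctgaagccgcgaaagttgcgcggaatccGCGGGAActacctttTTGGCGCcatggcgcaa
Cenpa: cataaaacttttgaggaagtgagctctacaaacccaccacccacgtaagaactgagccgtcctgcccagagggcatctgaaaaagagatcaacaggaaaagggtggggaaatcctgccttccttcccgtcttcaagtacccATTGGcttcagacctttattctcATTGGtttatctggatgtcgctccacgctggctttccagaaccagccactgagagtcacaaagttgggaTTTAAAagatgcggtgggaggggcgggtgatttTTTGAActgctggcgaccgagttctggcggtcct
Mki67: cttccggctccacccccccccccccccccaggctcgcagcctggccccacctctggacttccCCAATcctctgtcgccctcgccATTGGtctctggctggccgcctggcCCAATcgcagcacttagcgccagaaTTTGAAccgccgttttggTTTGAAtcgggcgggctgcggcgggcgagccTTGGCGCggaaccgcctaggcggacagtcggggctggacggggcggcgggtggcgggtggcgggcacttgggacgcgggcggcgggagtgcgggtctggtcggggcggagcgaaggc
Mcm3, a helicase subunit, held 3 matches to E2F letters, all downstream of its start site (20, 40 and 43 bases), the last 2 overlapping, and 3 CCAAT boxes upstream. Cdt1, the loader that brings the helicase to the origin, held 2 E2F matches and no CCAAT box or CHR letters. Cenpa, the histone that marks centromeres, held 2 CHR matches close to its start site (-17 and 17 bases) behind 2 CCAAT boxes. Mki67, which coats mitotic chromosomes, held letters of all 3 kinds.

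**Figure D1:**
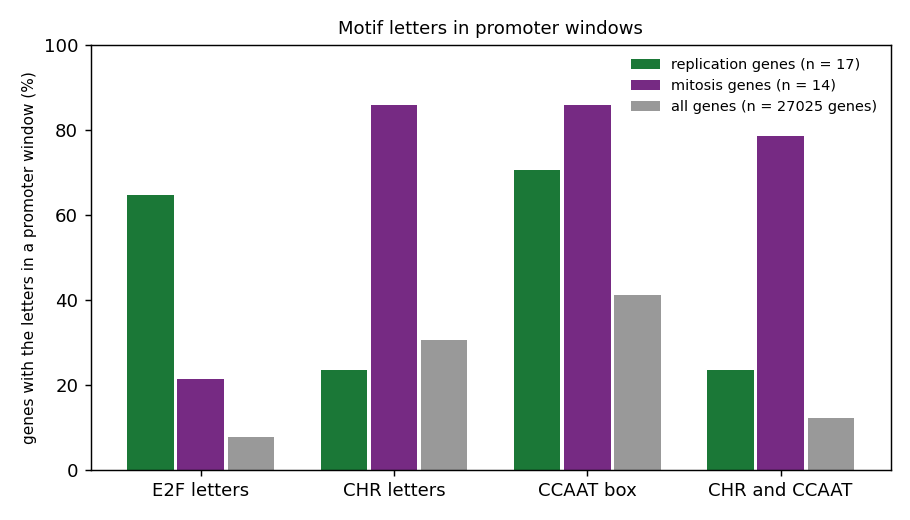
Percent of genes with the letters of each motif in a promoter window, for 17 replication genes, 14 mitosis genes and all 27025 genes with a window. E2F letters were most frequent among replication genes (64.7%) and CHR letters among mitosis genes (85.7%), and CCAAT boxes stood in 70.6% of replication and 85.7% of mitosis genes.

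By their distributions of values, the 8 arrays formed 3 sets: the replicate 1 embryoid bodies (set 1), the replicate 2 embryoid bodies (set 2) and all 4 arrays of ES cells. Sorted values differed by 0.0099 to 0.0325 log2 units on average within sets and by 0.1885 to 0.442 across them. Sets 1 and 2 each pair a labelled with a vector array. Stage and set cannot be told apart, so the stage comparison is given under 2 scalings. The Bmi1 probe set itself was lower in the labelled arrays. It stood at 7.48 and 8.51 in labelled and at 9.35 and 9.67 in vector embryoid bodies (a difference of -1.51 ± 0.37 log2 units, SE), and differed by -1.59 ± 0.37 in ES cells. Whether its probes lie in the cDNA was not tested, so this neither checks nor refutes the labels, and the groups are named as labelled. The ES cell markers Pou5f1, Nanog, Zfp42, Esrrb, Tdgf1 and Dppa5a were lower on all 4 embryoid body arrays than on any ES cell array, and 14 of 15 markers of blood, endoderm, heart, endothelium and mesenchyme were higher on all 4.

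By their medians, both gene groups were lower in embryoid bodies than in ES cells under each scaling, though single genes turned to higher values after quantile normalization. In vector embryoid bodies, 19 of 22 replication genes and 16 of 17 mitosis genes were called lower than in control ES cells and none higher (called means adjusted p below 0.05 in limma, Benjamini-Hochberg over 12982 genes). Of all genes, 35.8% were called lower and 22.7% higher in that comparison. The median difference was -1.33 log2 units for replication genes (2.52-fold lower) and -1.34 for mitosis genes (2.54-fold lower), against -0.24 for all genes. Every one of the 39 genes had both embryoid body arrays below both ES cell arrays, as 48.8% of all genes did. In such bulk samples, fewer dividing cells and less RNA per cell cannot be told apart.

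Among the licensing factors, 8 of 9 were called lower. Mcm3 stood at 9.65 and 10.85 log2 units in vector embryoid bodies, against 12.52 and 12.28 in control ES cells. That is 4.43-fold lower (-2.15 ± 0.41 log2 units, SE, n = 2 and 2, adjusted p = 0.0040), and both embryoid body arrays lay far below both ES cell arrays. Its 4 other bright probe sets gave -0.15, -1.61, -0.37 and -1.70, and averaged probe sets gave -1.20. Mcm5, a subunit of the same ring, stood at 11.32 and 11.55 against 13.14 and 13.10 (-1.69 ± 0.16, adjusted p = 0.00027). Mcm4 (-1.57), Mcm7 (-1.21) and Mcm6 (-0.92) were called lower too. Mcm2 was not called (-0.70 ± 0.37, adjusted p = 0.14), with 10.78 and 11.75 in vector embryoid bodies against 12.03 and 11.90. Its replicate 2 array lay almost at the ES cell level. The other probe set of Mcm2 differed more, by -2.07 ± 0.39. Of the regulators of loading, Gmnn, which binds and blocks Cdt1, differed by -1.60 ± 0.20, Cdc6, a loader, by -1.51 ± 0.23, and Cdt1 by -0.85 ± 0.18 (all 3 called). The other bright probe set of Cdt1 differed more, by -1.80 ± 0.29, and averaged probe sets gave -1.15.

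Of the factors that activate the helicase, Gins1 (-1.82, and -1.002 with averaged probe sets), Mcm10 (-1.78, and -0.70 averaged) and Gins2 (-1.15) were called and Cdc45 was not (-0.72 ± 0.38, adjusted p = 0.14). At the fork 5 of 6 genes were called. Pole, the leading strand polymerase, stood at 7.83 and 8.69 in vector embryoid bodies, against 9.78 and 9.78 in control ES cells (-1.52 ± 0.32, adjusted p = 0.0056). Prim1, the primase (-1.38), Pcna, the sliding clamp (-1.28), and Pold1, the lagging strand polymerase (-0.95), were called too. Their clamp loader differed least: Rfc3 was called at -0.82 and Rfc4 was not (-0.63 ± 0.25, adjusted p = 0.066). All 3 genes of nucleotide supply were called, Tyms at -1.76, Rrm2 at -1.44 and Rrm1 at -1.25. With averaged probe sets Rrm1 stood at 0.0980. Tyms passed the filter through the ES cells alone and so had to differ. Without it, 18 of 21 replication genes were called.

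The smallest p of the members belonged to the mitosis gene Birc5, followed by the replication gene Mcm5. Birc5 (survivin, of the chromosomal passenger complex) stood at 9.73 and 9.98 in vector embryoid bodies, against 11.998 and 12.09 in control ES cells (4.56-fold lower, -2.19 ± 0.17, adjusted p = 0.00014). Its partner kinase Aurkb differed by -1.89 ± 0.22. Cenpa stood at 9.51 and 10.09, against 11.95 and 11.92 (-2.14 ± 0.25, adjusted p = 0.00056). Another bright probe set of Cenpa gave -0.69, and averaged probe sets gave -0.93. The cyclins Ccna2 (-1.64) and Ccnb2 (-1.50) and their kinase Cdk1 (-1.10) were all called. So were Aurka (-1.34) and Plk1 (-1.32), which build spindle poles, and the checkpoint genes Mad2l1 (-1.38), Bub1 (-1.24) and Bub1b (-1.17) with their target Cdc20 (-1.41). The motors Kif11 (-1.37) and Kif20a (-1.12) and the spindle assembly factor Tpx2 (-0.92) were called, as was Top2a, which untangles DNA (-1.19). Other bright probe sets did not all share this: Kif11 had one at 0.40, Tpx2 had 0.01 and 0.34, and Top2a had one at -0.03. Of the 13 other bright probe sets of mitosis genes 10 were lower, and of the 23 of replication genes all 23 were. Averaged probe sets gave -0.76 for Kif11, -0.57 for Tpx2 and -0.55 for Top2a. Mki67 was the exception: it stood at 10.75 and 10.91 in vector embryoid bodies, against 11.19 and 11.51 in control ES cells (-0.52 ± 0.24, adjusted p = 0.10). With a term for the embryoid body set in the fit, all 22 and all 17 genes were called lower, as 45.3% of all genes were.

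**Figure D2:**
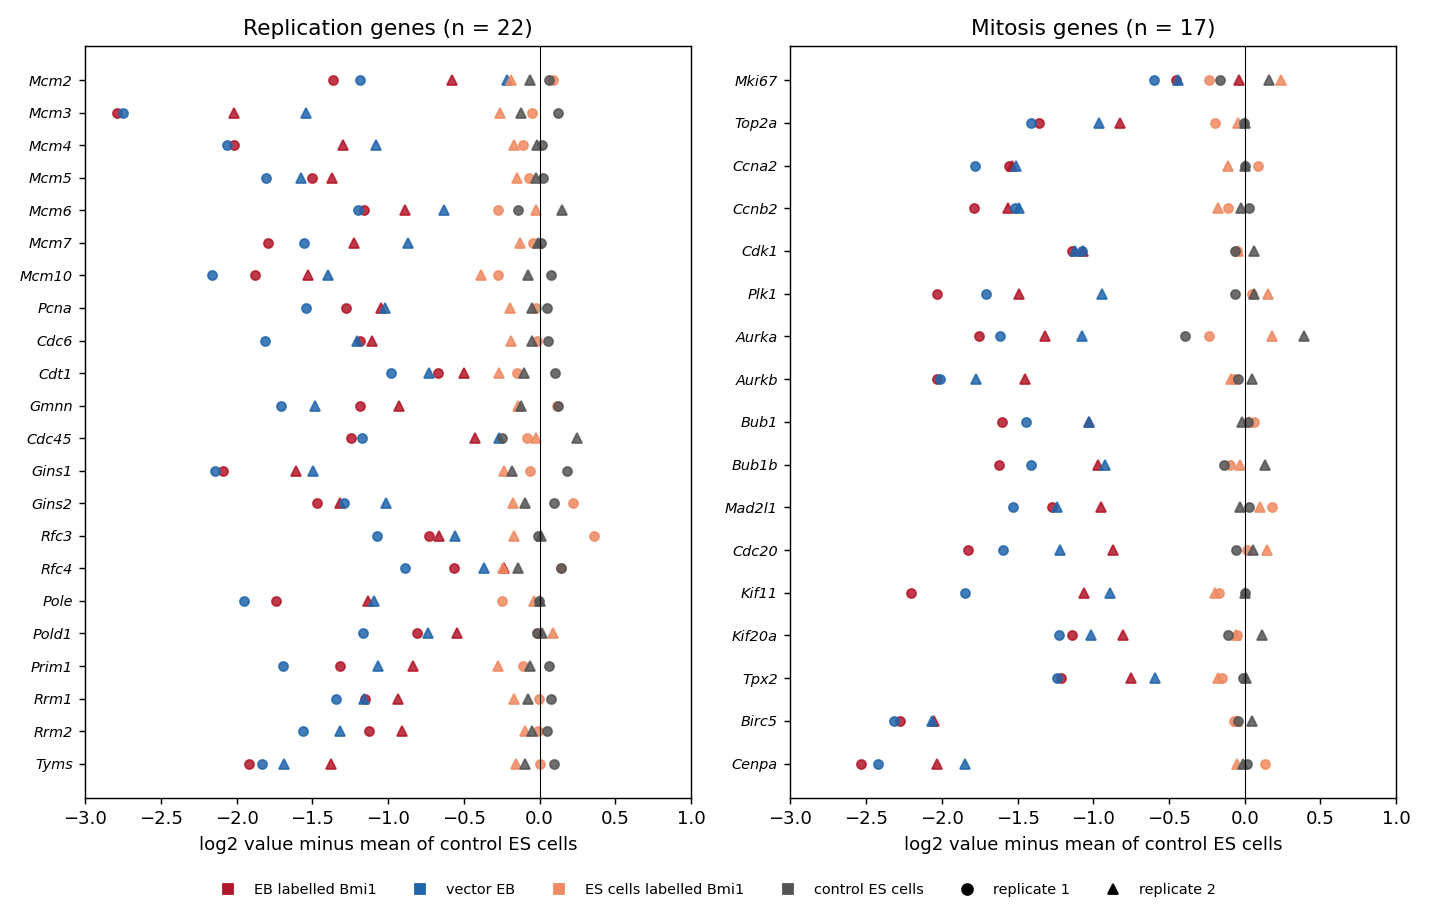
Log2 value of each of 22 replication and 17 mitosis genes on each array minus the mean of the control ES cell arrays, colours for groups and shapes for replicates. As deposited, embryoid bodies have lower values than ES cells for all but Rfc4 and Mki67, which overlap in the samples labelled Bmi1; after quantile normalization, not drawn, 5 genes in vector and 9 in labelled embryoid bodies were on average higher.

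In the samples labelled Bmi1 the stage difference was similar in kind. Of 22 replication genes 18 were called lower, and of 17 mitosis genes 16 (38.0% of all genes were called lower and 21.2% higher), with medians of -1.04 and -1.43 against -0.27 for all genes. Without Tyms, 17 of 21 replication genes were called. Of the 13 other bright probe sets of mitosis genes 9 were lower, and of the 23 of replication genes 22 were. Those higher belonged to Top2a (0.69), Tpx2 (0.30 and 0.53), Kif11 (0.27) and Rrm1 (0.04). Cenpa stood at 9.40 and 9.91 in the labelled embryoid bodies, against 12.07 and 11.89 in the labelled ES cells (-2.32 ± 0.25, adjusted p = 0.00046). Mcm3 stood at 9.61 and 10.38, against 12.35 and 12.14 (-2.25 ± 0.41, adjusted p = 0.0033). Birc5 (-2.10) and Plk1 (-1.86) followed. This order held only for the brightest probe sets: with averaged ones Cenpa stood at -0.79 and Mcm3 at -1.29. Many members were then lower than both, among them Mcm5 (-2.17), Birc5 (-2.10), Plk1 (-1.86), Mcm7 (-1.72) and Gins2 (-1.72). The 5 genes not called were Mcm2 (-0.92), Cdc45 (-0.78), Cdt1 (-0.37), Rfc4 (-0.35) and Mki67 (-0.25), and only in Rfc4 and Mki67 did the arrays of the 2 groups overlap (50.1% of all genes lay lower without overlap). With the set term, 21 and 16 genes were called lower (46.6% of all genes). Called lower in both stage comparisons, which share no array, were 34 members, Tyms among them. The share of all genes called lower in both was not computed, so the 34 cannot be read against it. Both comparisons share 1 fit and the same 3 sets of arrays.

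The size of the stage difference depended on the scaling. When all 8 arrays were brought to 1 distribution (quantile normalization), the median of all genes was -0.04 in place of -0.24 in the vector comparison (-0.56 after median centring), and the medians of replication and mitosis genes became -0.49 and -0.51. Then 9 replication and 8 mitosis genes were called lower (26.4% of all genes), and Mcm2, Mcm6, Cdt1, Rfc4 and Mki67 turned to small positive values, none called. In the samples labelled Bmi1, 6 of 22 replication genes, Tyms among them, were called lower, a share close to the 26.8% of all genes. Of 17 mitosis genes, 7 were called lower there. Cdt1 (0.64, adjusted p = 0.014) and Mki67 (0.69, adjusted p = 0.030) were called higher there, where 50.8% of all genes were called in either direction. For Cdt1 this held for its brightest probe set. As deposited, its other bright probe set gave -1.92 ± 0.29 in those samples, and averaged probe sets gave -0.98. Called lower in both comparisons under both scalings were 11 members: Mcm3, Mcm10, Gins1, Pole and Tyms, and Ccna2, Ccnb2, Plk1, Aurkb, Birc5 and Cenpa. They make up 64.7% of the 17 genes called lower in the vector comparison after quantile normalization and 84.6% of the 13 in the samples labelled Bmi1. Without Tyms, whose direction the filter fixed, they are 10 members, or 62.5% of 16 and 83.3% of 12. The share of all genes called lower under this joint rule was not computed, so these counts have no background beside them. RNA quality moved with stage too: the 3′ minus 5′ difference of the Actb control probe sets was 0.86 and 0.84 (Bmi1) and 0.86 and 0.60 (vector) in embryoid bodies, against 0.44 and 0.44 (Bmi1) and 0.51 and 0.29 (control) in ES cells. That of Gapdh lay between -0.03 and 0.18 on all arrays. The part of either in the stage difference was not tested.

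**Figure D3:**
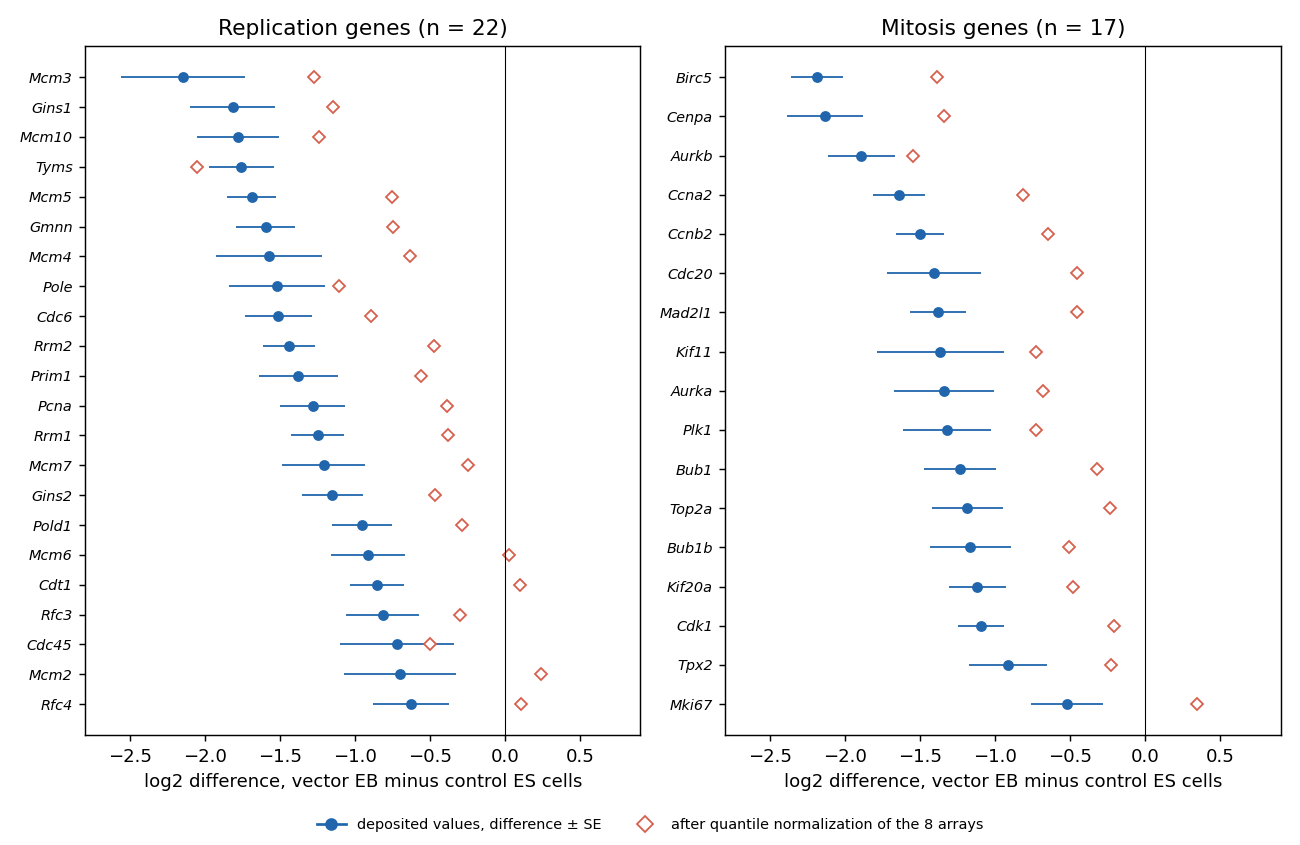
Log2 difference of vector embryoid bodies minus control ES cells for each gene, as deposited (filled, with SE, n = 2 and 2 arrays) and after quantile normalization of the 8 arrays (open). All 39 genes lie below 0 as deposited; Mcm2, Mcm6, Cdt1, Rfc4 and Mki67 lie above 0 after quantile normalization.

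Most further replication and mitosis genes were lower in embryoid bodies too. Of 38 further replication genes measured, 33 were called lower and 1 higher in vector embryoid bodies than in control ES cells (35.8% of all genes were lower and 22.7% higher), with a median of -1.51, against -0.24 for all genes. The lower ones with the smallest p were Pole4 (-2.71 ± 0.20), a subunit of polymerase epsilon, Rfc5 (-2.55 ± 0.23), of the clamp loader, and the fork proteins Wdhd1 (-1.76) and Tipin (-1.84). The 1 higher was Pold4 (0.89 ± 0.18, adjusted p = 0.0045), the small subunit of polymerase delta. Of 41 further mitosis genes, 31 were called lower and 1 higher, with a median of -1.06 against the same shares and median of all genes. Among the lower ones were Ube2c (-2.71 ± 0.23), the ubiquitin-conjugating enzyme of the anaphase-promoting complex, Spc24 (-2.25), of the kinetochore, Cks2 (-1.70) and Cdca3 (-1.88). The higher one was Kif15, a spindle motor, at 0.91 ± 0.34 (adjusted p = 0.0499), not called after quantile normalization (0.62). Kif15 passed the filter through embryoid body arrays alone, so the filter fixed its direction, as it did for Tyms. Of 16 regulators of these genes, 6 were called lower, a share close to the 35.8% of all genes, with a median of -0.50. Among the 6 were Mybl2 (-3.18 ± 0.58), Tfdp1, the partner of E2F (-2.56 ± 0.22), E2f8 (-2.45 ± 0.23) and E2f1 (-0.90 ± 0.16). The repressor E2f6 was called higher (0.86 ± 0.21, adjusted p = 0.0105). In the samples labelled Bmi1 it went the other way, with 9.04 and 9.30 in embryoid bodies against 9.85 and 9.35 in ES cells. In the samples labelled Bmi1 the counts were 32 lower and 1 higher of 38, 29 lower and 1 higher of 41, and 8 lower of 16 (38.0% of all genes were lower and 21.2% higher). After quantile normalization the vector counts were 26 lower and 2 higher of 38, 18 lower and 2 higher of 41, and 6 lower and 1 higher of 16 (26.4% of all genes were lower). The share of all genes called higher there is not given here, so the counts of higher genes cannot be read against it.

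Embryoid bodies labelled Bmi1 were then set against vector embryoid bodies. No replication or mitosis gene was called in limma, where 0.139% of all genes were. At an unadjusted p below 0.05 stood 2 of 22 replication genes, Gmnn and Rrm2, and 0 of 17 mitosis genes, against 7.06% of all genes. The medians were 0.11 for replication and -0.01 for mitosis genes, against -0.04 for all genes, and the median SE of a gene was 0.24 in both lists. Leaving out single arrays turned the sign of both list medians: -0.05 and -0.29 without Bmi1 replicate 2, -0.14 and -0.13 without vector replicate 1, against 0.31 and 0.20 without Bmi1 replicate 1 and 0.38 and 0.22 without vector replicate 2.

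Gmnn stood at 10.70 and 10.96 with the label, against 10.18 and 10.40 in vector embryoid bodies. Its difference was 0.54 ± 0.20 (SE, n = 2 and 2, adjusted p = 0.59), and it was nearly equal within the sets, 0.52 in set 1 and 0.56 in set 2. Rrm2, the small subunit of ribonucleotide reductase, stood at 11.90 and 12.12, against 11.47 and 11.71 (0.42 ± 0.17, adjusted p = 0.69), also above both vector arrays. The other bright probe sets of Rrm2 gave -0.12 and -0.09. Cdc6 stood at 9.50 and 9.58, against 8.87 and 9.48 (0.37 ± 0.23, adjusted p = 0.85), and its 2 sets differed more than those of any other replication gene, with 0.63 and 0.10. Mcm5 (0.25 ± 0.16) and Cdt1 (0.27 ± 0.18) had both labelled arrays above both vector arrays. Their other bright probe sets went the other way, at -0.18 and -0.49 for Mcm5 and at -0.48 for Cdt1. Plk1 stood at 8.36 and 8.90 with the label, against 8.69 and 9.45 with the vector (-0.44 ± 0.29, adjusted p = 0.87). Its differences within the sets were -0.33 and -0.55.

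Within the sets, replication genes were more often higher with the label in set 1 than in set 2. In set 1 their median difference was 0.24 and in set 2 it was -0.03. Of 22 genes, 9 were higher in both sets, 5 lower in both, 7 higher in set 1 and lower in set 2, and 1 the reverse. All genes split into 25.4% higher in both, 36.3% lower in both, 17.5% higher in set 1 and lower in set 2, and 20.6% the reverse. Among the 9 were the fork genes Prim1 (0.38 and 0.23), Pold1 (0.36 and 0.19) and Rfc4 (0.33 and 0.13), and Rrm1 (0.19 and 0.22). Over both sets, the other bright probe set gave 0.41 for Prim1, -0.24 for Pold1, 0.40 for Rfc4 and 0.03 for Rrm1. Among the 5 were Mcm2 (-0.18 and -0.36), Mcm3 (-0.04 and -0.48) and Mcm7 (-0.24 and -0.36) of the helicase ring. Mitosis genes had medians of -0.06 and 0.0045, with 5 higher in both sets, 6 lower in both and 6 split. Mad2l1 (0.26 and 0.29) and Mki67 (0.15 and 0.40) were higher in both, and Kif11 (-0.36 and -0.17) and Aurka (-0.14 and -0.25) lower. Both labelled arrays lay above both vector arrays for 6 replication and 0 mitosis genes (10.8% of all genes), and below them for 1 gene of each list, Gins2 and Ccnb2 (14.4% of all genes).

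**Figure D4:**
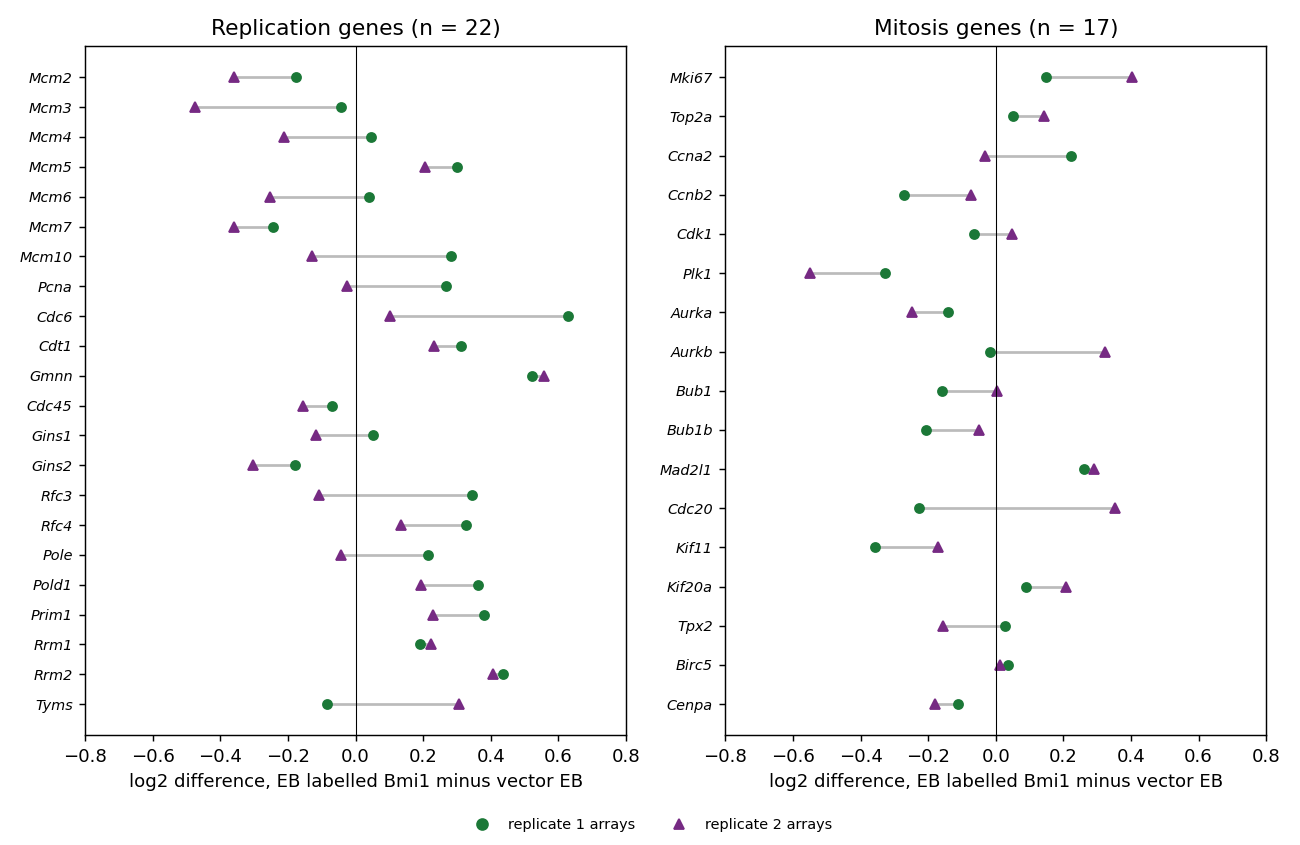
Log2 difference of embryoid bodies labelled Bmi1 minus vector embryoid bodies within the replicate 1 arrays (circles) and the replicate 2 arrays (triangles). Gmnn and Rrm2 lie above 0.4 in both sets, Plk1 lies below -0.3 in both, and no gene was called.

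The choice of probe set mattered for replication genes. Of their 23 other bright probe sets, 18 were lower in embryoid bodies labelled Bmi1 than in vector embryoid bodies, with a median of -0.16, where the brightest ones had a median of 0.11. With a term for the embryoid body set in the fit, 2.09% of all genes were called but still no member. The smallest adjusted p were then 0.10 for Rrm2, 0.11 for Gmnn and 0.11 for Plk1. As deposited, the replicate 2 embryoid bodies carried more of both gene groups than the replicate 1 embryoid bodies. The median difference of set 2 minus set 1 was 0.40 for replication genes and 0.49 for mitosis genes, against 0.15 for all genes. All 22 replication genes were higher in set 2 in both groups, and 17 (labelled Bmi1) and 16 (vector) of 17 mitosis genes were. Of all 12982 genes, 8350 (labelled Bmi1) and 7679 (vector) were higher in set 2. Quantile normalization made the gaps smaller. The replication means of sets 1 and 2 were then 10.41 and 10.61 (labelled Bmi1) and 10.16 and 10.56 (vector), against 9.93 and 10.32 and 9.75 and 10.32 as deposited. The mitosis means were 10.32 and 10.55 and 10.32 and 10.49, against 9.81 and 10.28 and 9.87 and 10.26. The ES cell markers moved with the sets: their mean level was 8.86 and 10.15 in embryoid bodies labelled Bmi1 and 8.67 and 10.78 in vector embryoid bodies, and all 6 were higher in replicate 2 of either group. Their part in the result was not tested.

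In ES cells the label went with no called change in these genes. In limma 0 of 39 members were called (0.0462% of all genes), none with the set term either (1.66% of all genes), and 0 of 39 had an unadjusted p below 0.05 (6.29% of all genes). The differences were small and mostly negative for replication genes: 19 of 22 were lower in ES cells labelled Bmi1 than in control ES cells, with a median of -0.10, against 0.0041 for all genes. Of mitosis genes 11 of 17 were lower, with a median of -0.05. Mcm10 stood at 10.20 and 10.08 in ES cells labelled Bmi1, against 10.54 and 10.39 in control ES cells (-0.33 ± 0.27, adjusted p = 1.0). Cdt1 stood at 12.80 and 12.68, against 13.06 and 12.85 (-0.21 ± 0.18, adjusted p = 1.0). In both genes the labelled arrays lay below the controls without overlap. Prim1 (-0.19), Ccnb2 (-0.15) and Mcm5 (-0.11) did so too, and Mad2l1 lay above the controls (0.14). The labelled arrays lay below both controls for 7 of 22 replication and 6 of 17 mitosis genes (20.6% of all genes) and above both for 0 and 2 (25.1% of all genes). The regulator E2f6 stood at 9.85 and 9.35 in ES cells labelled Bmi1, against 8.59 and 8.55 in control ES cells (1.03 ± 0.21, adjusted p = 0.20, and 0.047 with the set term). The ES cell comparison holds 1 untreated array among its controls, and a vector effect cannot be separated from it with 1 array.

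The difference between the labelled effect in embryoid bodies and that in ES cells was tested as an interaction. No gene at all was called among 12982, and no member had an unadjusted p below 0.05 (6.83% of all genes). With the set term 0.824% of all genes and no member were called. The smallest p belonged to Gmnn (0.55 ± 0.28, adjusted p = 0.87), Rrm2 (0.48 ± 0.25, adjusted p = 0.89) and Cdt1 (0.48 ± 0.25, adjusted p = 0.90). Mcm5, Cdt1, Prim1, Top2a and Birc5 were higher with the label in both embryoid body sets and lower in ES cells without overlap. These are 12.8% of the 39 members, and 13.5% of all genes did so in 1 direction or the other.

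Replication and mitosis genes were last contrasted within each array, by the mean of the replication genes minus that of the mitosis genes. Only changes of this value between arrays can be read, since probe sets differ in brightness. It was 0.13 and 0.04 in embryoid bodies labelled Bmi1, -0.11 and 0.06 in vector embryoid bodies, -0.08 and -0.25 in ES cells labelled Bmi1, and 0.00007 and -0.20 in control ES cells. In the samples labelled Bmi1, embryoid bodies lay above ES cells without overlap, so the replication mean was higher relative to the mitosis mean there. In vector and control samples the 2 stages overlapped. With probe sets averaged per gene the values were 0.03 and 0.06 in embryoid bodies labelled Bmi1, -0.15 and 0.17 in vector embryoid bodies, 0.04 and -0.20 in ES cells labelled Bmi1, and 0.05 and -0.12 in control ES cells. The stages then overlapped in both. The stage medians changed likewise: with averaged probe sets (21 replication genes, without Tyms) they were -1.04 for replication and -1.08 for mitosis genes in the samples labelled Bmi1, and -1.22 and -1.12 in the vector comparison. In neither stage comparison did the replication mean minus the mitosis mean separate the stages under both choices of probe set.

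**Figure D5:**
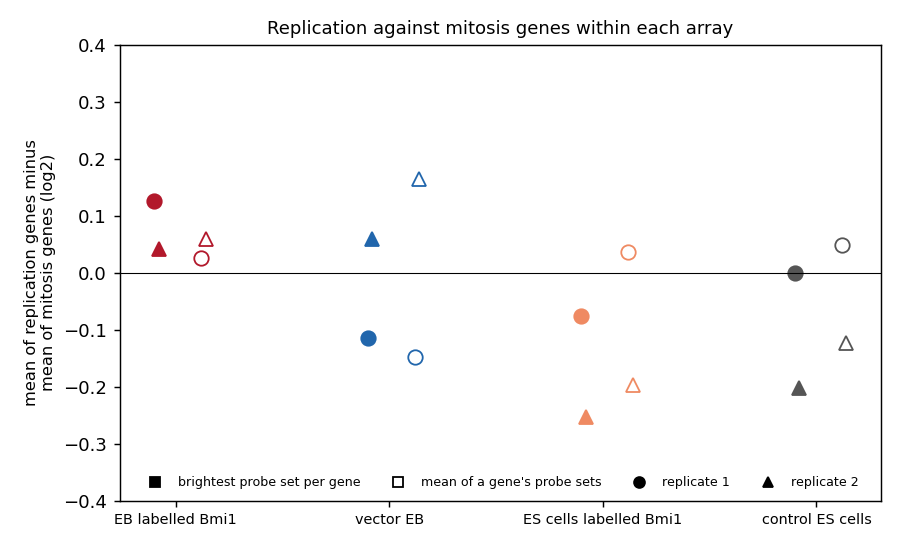
Mean of the replication genes minus mean of the mitosis genes on each array, in log2 units, with the brightest probe set per gene (filled) and with all probe sets of a gene averaged (open). The values lie between -0.25 and 0.17, and with averaged probe sets the embryoid body and ES cell arrays overlap both with the label and without it.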

How the data were processed

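Expression values of 8 Affymetrix arrays, 1 per sample, were used as deposited. The deposited values are on the log2 scale. RMA is the method named, without a version, in the submitters' processing notes, and no source used here says whether all arrays went into a single run. As the distributions differ between 3 sets of arrays, a stage difference can hold a part from the scaling. Of 45037 probe sets without the array controls, 34945 had 1 gene symbol in the platform annotation, 932 had several and 9160 had none here. The brightest 1-symbol probe set stood for a gene, and 12982 genes above the array median on at least 2 arrays were tested.

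One model with 4 group means was fitted with limma 3.58.1 in R 4.3.3 (lmFit, eBayes), with 4 residual degrees of freedom, two-sided p-values and Benjamini-Hochberg adjustment over all genes tested, at a threshold of 0.05. The fit was tested on simulated data. To see whether replicate numbers pair the arrays, each array's deviations from its group mean were correlated over genes. The replicate 1 embryoid bodies gave r = 0.72 with each other, and 0.03 and 0.04 with replicate 1 of the ES cells labelled Bmi1. The numbers therefore mark sets of embryoid body arrays only, and a term for the set (3 residual degrees of freedom) was fitted as an alternative.

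Alternatives were the filter (none, or the 75th percentile), averaged probe sets per gene, median centring, quantile normalization, an intensity trend with a robust prior, arrays of 1 stage, and leaving out each array. Either embryoid body set alone, and quantile normalization with the set term, were added after seeing the data. The members, the lists of further genes and the motifs were chosen with earlier results of these data known. Named are the members called in a comparison or, with fewer than 6 called, the 6 with the smallest p, beside values of further members, and of the further genes those called, up to 4 with the smallest p in each direction. Promoter windows came from a RefSeq table, and members without an entry are not shown.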

Additional observations from a re-analysis of the deposited data

How the results depend on the processing

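No member was called for labelled Bmi1 against its control, in either stage or in their difference, under any alternative run. In embryoid bodies labelled Bmi1 against vector, averaging probe sets turned the sign of Mcm5 (-0.14) and Cdt1 (-0.0374). It also turned Mcm4 (0.07), Gins1 (0.15), Bub1 (0.03), Bub1b (0.09), Tpx2 (0.01) and Cdc20 (-0.02) there. Between stages it turned Rrm1 (0.0980 vector, 0.24 labelled Bmi1). Of the members called as deposited, quantile normalization, with or without the replicate block, turned Cdt1 (0.10) and Mcm6 (0.0224) in the vector stage comparison, and Rrm2 (0.0710), Top2a (0.0490), Mcm6 (0.11), Pold1 (0.0289) and Prim1 (0.0080) in that labelled Bmi1. Of those not called, Mcm2 (0.24), Rfc4 (0.10) and Mki67 (0.35) turned in the vector comparison, and Mcm2 (0.0683), Rfc4 (0.44), Cdt1 (0.64) and Mki67 (0.69) in the labelled one. It left 9 replication and 8 mitosis genes called (vector) and 7 and 8 (labelled Bmi1, 1 of each higher), with medians of -0.49, -0.51, -0.25 and -0.53, where median centring gave -1.65, -1.67, -1.39 and -1.77. Averaged probe sets gave mitosis medians of -1.12 (vector) and -1.08 (labelled Bmi1), set 2 alone -1.07 in both, and set 1 alone -1.64 (labelled Bmi1). The replicate block raised the stage calls to 22 and 17 (vector) and to 21 and 16 (labelled Bmi1). Without 1 array, the medians of replication and mitosis genes were -1.56 to -1.07 and -1.53 to -1.07 in the vector stage comparison. In that labelled Bmi1 they were -1.18 to -0.93 and -1.64 to -1.07. For the label, medians then lay between -0.14 and 0.38 (replication) and -0.29 and 0.22 (mitosis) in embryoid bodies, and between -0.17 and -0.03 and between -0.12 and 0.0235 in ES cells. Where a group kept 1 array, that array was assumed to vary like the others. The cause of these shifts was not tested. With 2 arrays a group precision is low, and Tyms lies below the array median in embryoid bodies.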
